A study of Mus musculus with 6 samples.

Results

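The genes described here are 34 genes of glucose uptake, glycolysis and the response to low oxygen, measured by mRNA sequencing in Kupffer cells (liver-resident macrophages). They were chosen by symbol: 35 of the 56691 genes in the deposited table carried one of the 34 symbols, and those with a mean of at least 0.5 FPKM over the 6 libraries were kept. FPKM, the fragments counted per kilobase of a gene's exons and scaled by its library total, is a level per length. Comparisons between genes rest on the exonic lengths of the deposited table, which need not be those of the transcripts present. The row dropped was a second row with the symbol Aldoa, with a mean of 0.338 FPKM. The 34 genes kept had means between 1.13 and 155 FPKM, and between 18 and 19873 counts in a library.

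The study had 3 libraries of cells treated with 5-HT, the neurotransmitter and gut hormone serotonin, and 3 untreated libraries. All 6 came from mice with the genotype Vil1Cre-Myd88fl/fl, in which a Cre driver of the intestinal epithelium acts on a floxed gene of the adaptor protein of most Toll-like receptors, so the untreated libraries carry both alleles too and libraries without them were not analysed here. The sources used here do not give the dose, route or duration of the 5-HT treatment, whether mice or isolated cells received it, the age of the mice or how many animals lie behind a library. No label says that libraries of a group came from separate animals, so p-values reflect only the spread among these libraries and that spread may be technical. Library totals ran from 15390956 to 17093251 counts in 5-HT treated libraries and from 18187617 to 19050039 counts in untreated libraries.

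Glycolysis breaks glucose down to pyruvate: transporters let glucose in, hexokinases trap it in the cell, phosphofructokinase commits it, and the lower enzymes recover ATP before lactate dehydrogenase and the lactate exporters carry off the end product. The hypoxia-inducible factors (HIF) pair an oxygen-labile alpha subunit with the stable partner ARNT; prolyl hydroxylases mark the alpha subunit for destruction when oxygen is present. Many glycolysis genes are textbook HIF targets, and macrophages are known to raise glycolysis when activated by microbial products.

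The labelled cell type was checked against marker genes. The 12 Kupffer cell markers, led by Cd5l and Clec4f, were detected in all libraries and summed to 1319 to 1554 FPKM in 5-HT treated libraries, against 775.2 to 1117 FPKM in untreated libraries. The 12 markers of liver sinusoidal endothelial cells, led by Clec4g and Lyve1, summed to more than the Kupffer cell markers in every library, at 3438 to 4706 FPKM in 5-HT treated and 4164 to 4185 FPKM in untreated libraries. The 13 neutrophil markers, led by S100a9 and S100a8, summed to 485.4, 929.8 and 354.9 FPKM in 5-HT treated libraries, against 178.3, 145.3 and 174.5 FPKM in untreated libraries. Of the 10 neutrophil markers tested, 6 were called higher and 0 lower after 5-HT (edgeR adjusted p under 0.05). Kupffer cell markers had 4 of 12 higher and 0 lower, and endothelial markers 1 of 12 higher and 3 lower. Stellate cell and fibroblast markers had 0 of 11 higher and 1 lower, and the other lists held no called gene. Over all genes tested, 4.55% were called higher and 3.19% lower. The hepatocyte list (led by Alb and Tat) summed to 693.6 to 1841 FPKM in 5-HT treated and 806.8 to 1366 FPKM in untreated libraries. The dendritic cell list (Clec9a, Zbtb46) lay at 66 to 78.13 FPKM in 5-HT treated and 79.44 to 102.4 FPKM in untreated libraries, and the stellate cell and fibroblast list (Dcn, Ecm1) at 91.15 to 171.3 FPKM in 5-HT treated and 163.8 to 235.5 FPKM in untreated libraries. Ranges of the 2 groups overlapped for the monocyte (Plac8, Chil3), cholangiocyte (Spp1, Epcam), B cell and plasma cell (Jchain, Cd79a), T cell and natural killer cell (Gzma, Trac), erythroid (Hbb-bs, Hba-a1) and platelet (Pf4, Itga2b) lists; the platelet marker Gp1bb was at 0 in all libraries. Replicate 2 of each group stood apart: 5-HT treated replicate 2 had the highest neutrophil sum, and the cholangiocyte list summed to 299.2, 663.8 and 241.2 FPKM in 5-HT treated libraries, against 216.3, 974.2 and 248.6 FPKM in untreated libraries. In such bulk libraries, fewer cells of a type and less RNA per cell cannot be told apart, and the part of these marker levels in the results that follow was not tested beyond the values given.

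**Figure D1:**
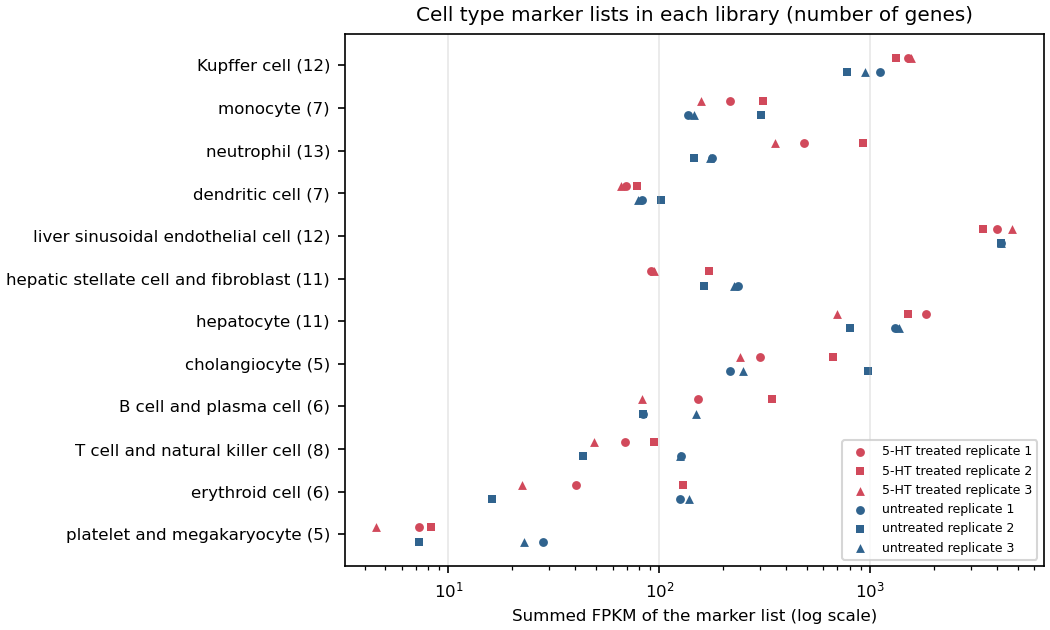
Summed FPKM (log scale) of each cell type marker list in each library, with 5-HT treated libraries in red above untreated libraries in blue and a symbol for each replicate. Endothelial markers lie above Kupffer cell markers in every library, and the neutrophil sum of every 5-HT treated library (354.9 to 929.8 FPKM) lies above those of the untreated libraries (145.3 to 178.3 FPKM).

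Of the 34 genes, 8 were higher in 5-HT treated than in untreated libraries and 0 were lower (edgeR quasi-likelihood test, Benjamini-Hochberg adjusted p under 0.05 over the 16641 genes tested). The 8 were the lactate exporter Slc16a3, the glucose transporter Slc2a1, the hexokinases Hk2 and Hk3, the phosphofructokinase Pfkl, the aldolase Aldoa, the phosphoglycerate kinase Pgk1 and the collagen prolyl hydroxylase P4ha1. They were 23.5% of the 34 genes, where 4.55% of all genes tested were called higher and 3.19% lower. Of the 25 with a mean FPKM of 5 or more, 7 (28%) were called higher, against 7.25% of all genes at that level. The log2 fold change was positive for 28 genes and negative for 6, with a median of 0.25, while the median over all genes tested was -0.018 and 47.7% of them were positive. For 16 of the 34 genes (47.1%) the 3 treated and 3 untreated FPKM values did not overlap, 14 higher and 2 lower, where 29.6% of all genes tested did so in either direction. At an unadjusted p under 0.05, 13 of the genes were higher and 2 lower. DESeq2 called 12 of the 34 genes higher and 2 lower, where it called 1241 higher and 1018 lower among all genes. The share of all genes at an unadjusted p under 0.05 was not counted. Unadjusted counts, here and for the bordering lists below, therefore have no background to set them against. The number called higher fell to 2 without untreated replicate 1, to 2 without untreated replicate 3 and to 4 without 5-HT treated replicate 1, and was 9 with replicate 2 of both groups left out, an alternative chosen after the marker values were seen. P4ha1 and Slc16a3 were the 2 genes called in every fit that gave them a value.

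**Figure D2:**
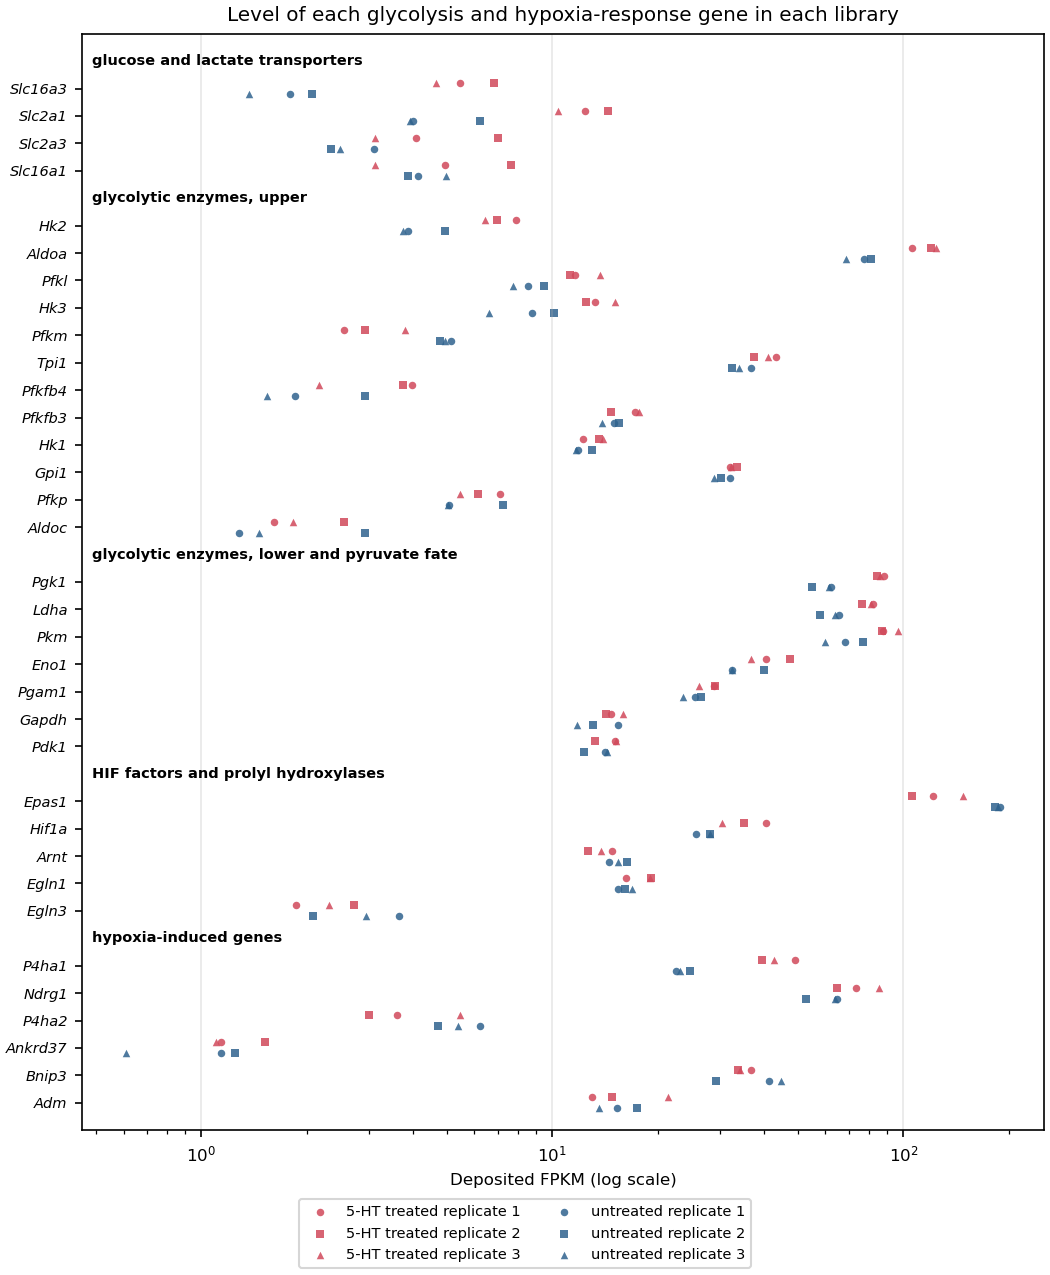
Deposited FPKM (log scale) of each of the 34 genes in each library, grouped by role, with 5-HT treated libraries in red above untreated libraries in blue. The treated and untreated points of Slc16a3, Slc2a1, Aldoa, Pgk1 and P4ha1 lie apart, with all 3 treated values above the untreated ones, while those of Epas1 and Pfkm lie apart the other way.

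**Figure D3:**
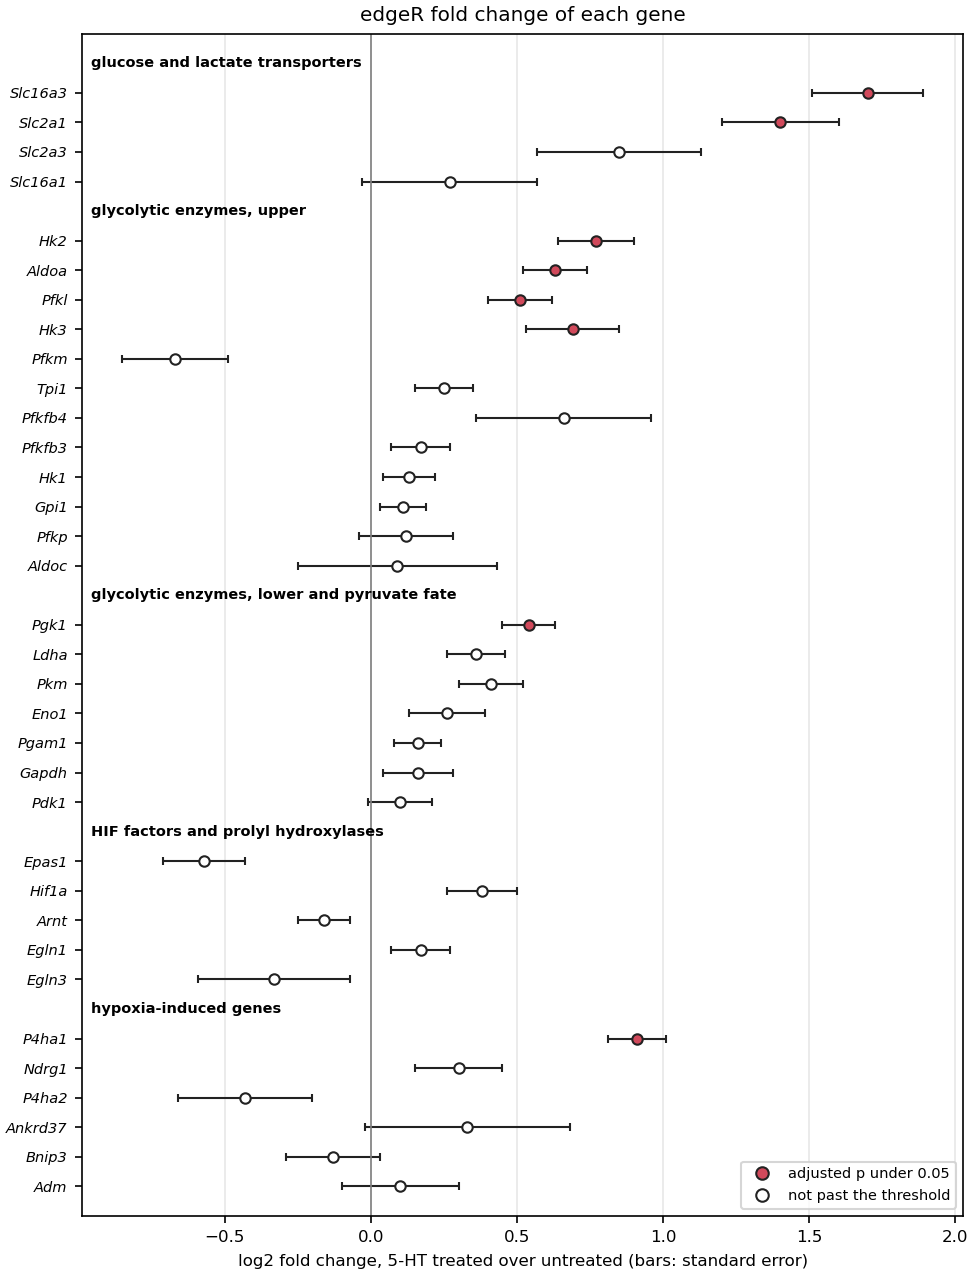
log2 fold change of each gene, 5-HT treated over untreated, from edgeR, with bars of 1 standard error; filled points passed an adjusted p of 0.05. Slc16a3 (1.70) and Slc2a1 (1.40) had the highest values, and 28 of 34 points lie right of 0.

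The transporters had the highest median log2 fold change of the 5 role groups, 1.13, with 2 of 4 genes higher and 0 lower. Slc16a3 (ENSMUSG00000025161; GRCm38, chr11:120948480-120960868, plus strand) encodes MCT4, a monocarboxylate transporter known for lactate export from glycolytic cells. Its level was 5.44, 6.82 and 4.65 FPKM in 5-HT treated replicates 1, 2 and 3, against 1.79, 2.07 and 1.37 FPKM in untreated replicates 1, 2 and 3. The lowest treated library was above the highest untreated one, and the fold change was 3.25 (log2 1.70 ± 0.19 SE, n = 3 each, edgeR adjusted p 0.00376). Slc2a1 (ENSMUSG00000028645; chr4:119108711-119137983, plus strand) encodes GLUT1, the basal glucose transporter of most cells. It had 12.42, 14.38 and 10.41 FPKM in 5-HT treated libraries, against 4.0, 6.23 and 3.92 FPKM in untreated libraries. The groups did not overlap, and the gene rose 2.65-fold (log2 1.40 ± 0.20 SE, n = 3 each, edgeR adjusted p 0.00838). Its adjusted p was 0.0527 without untreated replicate 1 and 0.0514 without untreated replicate 3, with a log2 fold change of 1.30 in each.

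Slc2a3 encodes GLUT3, a glucose transporter of high affinity, and had 4.10, 7.0 and 3.12 FPKM in 5-HT treated libraries, against 3.10, 2.34 and 2.48 FPKM in untreated libraries. The groups were barely apart, 5-HT treated replicate 2 was the highest by far, and the log2 fold change of 0.85 ± 0.28 SE was not past the threshold (edgeR adjusted p 0.12). Without that library it was 0.46, and DESeq2 (adjusted p 0.027) and the fit with no filter on low counts (0.0453) called the gene higher. Slc16a1 encodes MCT1, a transporter that moves lactate in either direction. It overlapped between groups, at 4.96, 7.62 and 3.13 FPKM in 5-HT treated libraries and 4.14, 3.88 and 4.99 FPKM in untreated libraries (log2 0.27 ± 0.30 SE, edgeR adjusted p 0.636). Leaving out 5-HT treated replicate 2 turned its log2 fold change to -0.10, and leaving out replicate 2 of both groups gave -0.16. The neutrophil marker sum was 485.4, 929.8 and 354.9 FPKM in 5-HT treated libraries. That sum and all 4 transporters were highest in 5-HT treated replicate 2 and lowest in 5-HT treated replicate 3. Among untreated libraries, replicate 2 had the lowest neutrophil sum (145.3 FPKM), the lowest Slc2a3 and Slc16a1, and the highest Slc16a3 and Slc2a1. The part of neutrophils in these levels was not tested.

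For the 2 called transporters and for Hk2 and P4ha1, which had the smallest adjusted p among the other genes called higher, the promoter sequence shows which of them carry the core letters known to be bound by HIF. The sequences are the 250 bases before the RefSeq start on GRCm38.p6, in the direction of transcription, and capitals mark every ACGTG or GCGTG on either strand (CACGT and CACGC where the match is on the other strand). The intervals are chr11:120948817-120949066 (plus strand) for Slc16a3, chr4:119108495-119108744 (plus strand) for Slc2a1, chr6:82774455-82774704 (minus strand) for Hk2 and chr10:59323046-59323295 (plus strand) for P4ha1.
Slc16a3: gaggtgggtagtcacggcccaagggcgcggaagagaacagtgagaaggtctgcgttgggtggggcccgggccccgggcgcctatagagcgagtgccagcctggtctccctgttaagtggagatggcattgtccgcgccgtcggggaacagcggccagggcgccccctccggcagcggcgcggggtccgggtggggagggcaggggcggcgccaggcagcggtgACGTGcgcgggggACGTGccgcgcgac
Slc2a1: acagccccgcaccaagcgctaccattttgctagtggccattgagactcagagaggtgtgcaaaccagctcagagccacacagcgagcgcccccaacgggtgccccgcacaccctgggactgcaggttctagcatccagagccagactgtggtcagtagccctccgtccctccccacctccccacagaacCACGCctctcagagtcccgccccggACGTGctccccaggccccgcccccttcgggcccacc
Hk2: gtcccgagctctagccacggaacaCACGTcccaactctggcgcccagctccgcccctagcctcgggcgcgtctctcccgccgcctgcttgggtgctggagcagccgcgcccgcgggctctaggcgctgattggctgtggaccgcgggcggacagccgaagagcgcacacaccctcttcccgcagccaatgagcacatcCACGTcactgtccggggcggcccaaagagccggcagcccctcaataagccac
P4ha1: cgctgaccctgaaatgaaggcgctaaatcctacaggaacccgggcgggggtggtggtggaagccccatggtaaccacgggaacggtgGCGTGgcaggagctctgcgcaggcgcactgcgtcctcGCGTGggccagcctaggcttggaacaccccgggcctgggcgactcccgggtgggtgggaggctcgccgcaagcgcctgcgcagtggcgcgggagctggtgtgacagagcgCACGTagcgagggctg
Slc16a3 held 2 matches, which began 27 and 14 bases before the start, both ACGTG on the printed strand. Slc2a1 also held 2, at 61 and 36 bases before the start, and Hk2 held 2, at 226 and 52 bases. P4ha1 held 3, at 163, 126 and 16 bases before the start.

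Over the whole RefSeq window, 250 bases before to 50 after the start, 31 of the 34 genes had an entry (Slc2a3, Epas1 and Ndrg1 did not). ACGTG or GCGTG was found in 29 of these 31 genes (93.5%), against 46.7% of 27025 genes, where a gene counted when any of its windows held a match. By window, it was found in 37 of the 44 windows of these genes, against 43.8% of 32851 windows. The letters were found in 8 of the 8 genes called higher and in 21 of the 23 others, so their presence did not separate the called genes from the rest. ACGTG was found in 22 of the 31 genes (71.0%), against 21.8% of all genes, and GCGTG in 21 (67.7%), against 35.2%. CACGTG, the E-box, which contains ACGTG, was found in 6 of the 31 genes (19.4%), against 8.09% of all genes, and in 0 of the 8 called genes. The windows of these genes were also richer in G and C, with a median GC content of 63.2% and 21 CG pairs a window, against 52.8% and 7 over all genes; the part of this base composition in the shares of matches was not tested. A match describes letters in a window and not a bound site.

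Of the 12 upper glycolytic enzymes, 4 were higher and 0 lower, with a median log2 fold change of 0.21. Hk2 (ENSMUSG00000000628; chr6:82725025-82774454, minus strand) encodes the inducible hexokinase that can bind to mitochondria. It had 7.90, 6.97 and 6.41 FPKM in 5-HT treated libraries, against 3.88, 4.95 and 3.76 FPKM in untreated libraries. Every treated value exceeded every untreated one (1.70-fold, log2 0.77 ± 0.13 SE, n = 3 each, edgeR adjusted p 0.0152). Hk3 (ENSMUSG00000025877; chr13:55005985-55021385, minus strand) encodes the hexokinase typical of myeloid cells. Its levels were 13.25, 12.46 and 15.06 FPKM in 5-HT treated libraries, against 8.75, 10.11 and 6.59 FPKM in untreated libraries. These also did not overlap (1.61-fold, log2 0.69 ± 0.16 SE, n = 3 each, edgeR adjusted p 0.0418). Hk1, the widely expressed hexokinase, ran from 12.20 to 13.91 FPKM in 5-HT treated libraries and from 11.67 to 12.96 FPKM in untreated libraries, and overlapped (log2 0.13, edgeR adjusted p 0.438). The call of Hk2 was lost without 5-HT treated replicate 1 (adjusted p 0.0658), untreated replicate 1 (0.0897) or untreated replicate 3 (0.0738). Hk3 was called in 7 of 16 alternative fits and among single libraries kept its call only when untreated replicate 2 was left out; its adjusted p was 0.0528 without 5-HT treated replicate 2 and up to 0.14 without the others. Hk3 is expressed by neutrophils as well. The neutrophil marker sum was higher in every 5-HT treated than in any untreated library. It was highest in 5-HT treated replicate 2 (929.8 FPKM), which had the lowest Hk3 level of the treated libraries. The Kupffer cell marker sum was 1507, 1319 and 1554 FPKM in 5-HT treated libraries, against 1117, 775.2 and 949 FPKM in untreated libraries. That sum was lowest in replicate 2 of each group, while untreated replicate 2 had the highest Hk3 level of the untreated libraries. The part of neutrophils or of Kupffer cells in the level of Hk3 was not tested.

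Phosphofructokinase, the committing step, is built from liver, muscle and platelet type subunits, and the 3 genes had log2 fold changes of both signs. Pfkl (ENSMUSG00000020277; chr10:77986947-78010083, minus strand), the liver type, had 11.60, 11.21 and 13.69 FPKM in 5-HT treated libraries, against 8.54, 9.48 and 7.74 FPKM in untreated libraries. The groups did not overlap and the gene rose 1.43-fold (log2 0.51 ± 0.11 SE, n = 3 each, edgeR adjusted p 0.0397). Its call held in 8 of 16 alternative fits; it was lost with the replicate block (adjusted p 0.0912), in the 3 limma fits (0.0587 to 0.0612), and without 5-HT treated replicate 1 (0.0833) or 3 (0.0678) or untreated replicate 1 (0.147) or 3 (0.148). Pfkm, the muscle type, had 2.55, 2.92 and 3.80 FPKM in 5-HT treated libraries, against 5.15, 4.78 and 4.95 FPKM in untreated libraries. All treated values were below the untreated ones, but the log2 fold change of -0.67 ± 0.18 SE missed the threshold (edgeR adjusted p 0.0632). DESeq2 (adjusted p 0.0169) and the fit without 5-HT treated replicate 3 (0.0254) called it lower. Pfkp, the platelet type, ran from 5.46 to 7.09 FPKM in 5-HT treated and from 5.05 to 7.23 FPKM in untreated libraries (log2 0.12, edgeR adjusted p 0.708).

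The bifunctional enzymes that make fructose 2,6-bisphosphate, an activator of phosphofructokinase, were not called. Pfkfb3 ran from 14.71 to 17.70 FPKM in 5-HT treated and from 13.82 to 15.52 FPKM in untreated libraries (log2 0.17, edgeR adjusted p 0.349). Pfkfb4 ran from 2.16 to 3.99 FPKM in 5-HT treated and from 1.54 to 2.92 FPKM in untreated libraries (log2 0.66 ± 0.30 SE, edgeR adjusted p 0.23). Both overlapped between groups.

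Aldolase splits the phosphorylated sugar into trioses. Aldoa (ENSMUSG00000030695, chr7:126795234-126800751, minus strand) had the highest mean FPKM of the glycolytic enzymes among the 34 genes. It had 105.56, 120.15 and 124.04 FPKM in 5-HT treated libraries, against 77.33, 81.10 and 68.65 FPKM in untreated libraries. The groups stood well apart (1.55-fold, log2 0.63 ± 0.11 SE, n = 3 each, edgeR adjusted p 0.0157), and the call was lost without untreated replicate 1 (adjusted p 0.0801) or untreated replicate 3 (0.0802). Aldoc, the brain type aldolase, was low and overlapped, from 1.61 to 2.55 FPKM in 5-HT treated and from 1.28 to 2.92 FPKM in untreated libraries (log2 0.09 ± 0.34 SE, edgeR adjusted p 0.907). Tpi1, which interconverts the trioses, had 43.46, 37.50 and 41.16 FPKM in 5-HT treated libraries, against 36.79, 32.41 and 34.13 FPKM in untreated libraries. Its groups did not overlap, yet it was not past the threshold (log2 0.25 ± 0.10 SE, edgeR adjusted p 0.173). Gpi1, which isomerises the hexose phosphate between hexokinase and phosphofructokinase, had 32.16, 33.65 and 32.37 FPKM in 5-HT treated libraries, against 32.13, 30.31 and 28.91 FPKM in untreated libraries. The groups were apart by only a few hundredths of an FPKM (log2 0.11 ± 0.08 SE, edgeR adjusted p 0.478).

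Of the 7 genes of lower glycolysis and pyruvate fate, all 7 had a positive log2 fold change, 1 was called higher and 0 lower, and the median was 0.26. Pgk1 (ENSMUSG00000062070; chrX:106187100-106203699, plus strand) encodes the first ATP-making enzyme of the pathway. It had 88.00, 84.26 and 86.01 FPKM in 5-HT treated libraries, against 62.41, 54.81 and 61.57 FPKM in untreated libraries. The treated values were close together and all above the untreated ones (1.45-fold, log2 0.54 ± 0.09 SE, n = 3 each, edgeR adjusted p 0.0159). The call was lost without 5-HT treated replicate 1 (adjusted p 0.0562), untreated replicate 1 (0.0675) or untreated replicate 3 (0.0635), with log2 fold changes of 0.52 to 0.57.

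Ldha, which turns pyruvate into lactate, had 82.19, 76.16 and 80.70 FPKM in 5-HT treated libraries, against 65.43, 57.72 and 63.82 FPKM in untreated libraries. Pkm, the pyruvate kinase outside liver parenchyma and red cells, had 87.53, 86.77 and 96.58 FPKM in 5-HT treated libraries, against 68.00, 76.86 and 59.81 FPKM in untreated libraries; gene counts do not separate its M1 and M2 forms. Both genes were higher in every treated library than in any untreated one, and neither passed the threshold (Ldha log2 0.36 ± 0.10 SE, edgeR adjusted p 0.0643; Pkm log2 0.41 ± 0.11 SE, 0.0711). DESeq2 called both higher, Ldha with an adjusted p of 0.00523 and Pkm with 0.00859. Ldha was also called in the fit on genes of at least 5 FPKM (edgeR adjusted p 0.0321), and Pkm with replicate 2 of both groups left out (edgeR adjusted p 0.0286).

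Eno1, the enolase of most tissues, had 40.64, 47.49 and 36.72 FPKM in 5-HT treated libraries, against 32.54, 40.12 and 32.47 FPKM in untreated libraries (log2 0.26, edgeR adjusted p 0.265). Replicate 2 was the highest library of each group, and the groups overlapped. Pgam1, a phosphoglycerate mutase, had 28.85, 29.14 and 26.24 FPKM in 5-HT treated libraries, against 25.41, 26.59 and 23.52 FPKM in untreated libraries, with a small overlap (log2 0.16, edgeR adjusted p 0.279). Gapdh, the triose oxidising enzyme often taken as a reference gene, ran from 14.23 to 15.94 FPKM in 5-HT treated and from 11.77 to 15.39 FPKM in untreated libraries (log2 0.16, edgeR adjusted p 0.449), well below its neighbours in the pathway; the table gives it an exonic length of 4133 bases. Pdk1, a kinase that holds back pyruvate dehydrogenase, ran from 13.22 to 15.18 FPKM in 5-HT treated and from 12.29 to 14.31 FPKM in untreated libraries (log2 0.10, edgeR adjusted p 0.63). The sources used here do not say how reads that match several places were counted, so the levels of Gapdh, Pgk1, Ldha, Tpi1, Pgam1 and Eno1, which have near-identical processed copies in the mouse genome, are uncertain. Named copies held little: Tpi-rs11 averaged 1.84 FPKM, Pgam1-ps2 0.992, Eno1b 0.897, Pgk1-rs7 0.86 and Ldha-ps2 0.405.

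Within the HIF system, 0 of 5 genes were called higher and 0 lower by edgeR at the adjusted threshold, and the median log2 fold change was -0.16. At an unadjusted p under 0.05 Hif1a was higher and Epas1 lower, and DESeq2 called each of them in those directions, with adjusted p of 0.0305 and 0.00193. Hif1a, the alpha subunit best known for glycolysis genes, had 40.68, 35.10 and 30.35 FPKM in 5-HT treated libraries, against 25.61, 28.07 and 28.18 FPKM in untreated libraries. The groups did not overlap, but 5-HT treated replicate 3 was close to the untreated libraries (log2 0.38 ± 0.12 SE, edgeR adjusted p 0.0935). Epas1, which encodes HIF-2 alpha and is known for high expression in endothelium, had 121.44, 105.67 and 147.72 FPKM in 5-HT treated libraries, against 188.61, 182.50 and 186.62 FPKM in untreated libraries. It had the highest mean FPKM of the 34 genes and was lower in every treated library. Its log2 fold change was -0.57 ± 0.14 SE (edgeR adjusted p 0.0547). Fits with no filter on low counts (adjusted p 0.0342), on genes of at least 5 FPKM (0.0306) or without 5-HT treated replicate 3 (0.0162) called it lower. The endothelial markers Kdr and Stab2 were also lower in every 5-HT treated than in any untreated library, lowest in 5-HT treated replicate 2: Kdr had 227.55, 175.74 and 248.89 FPKM in 5-HT treated libraries, against 363.60, 362.56 and 395.31 FPKM in untreated libraries, and Stab2 had 355.51, 248.97 and 343.31 FPKM in 5-HT treated libraries, against 453.67, 457.62 and 452.75 FPKM in untreated libraries. Clec4g was lower in every treated library too, at 514.35, 438.13 and 654.25 FPKM, against 720.22, 688.7 and 664.67 FPKM in untreated libraries. Lyve1, on the same list, had 844.31, 794.37 and 1021.76 FPKM in 5-HT treated libraries, against 254.85, 248.34 and 268.29 FPKM in untreated libraries. Of the 12 endothelial markers, 1 was called higher and 3 lower, with a median log2 fold change of -0.22. Over all genes tested, 4.55% were called higher and 3.19% lower. The part of the endothelial markers in the level of Epas1 was not tested.

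The partner and the oxygen sensors were not called. Arnt, the constant beta subunit, ran from 12.64 to 14.82 FPKM in 5-HT treated and from 14.48 to 16.29 FPKM in untreated libraries (log2 -0.16, edgeR adjusted p 0.349). Egln1, which encodes the main oxygen-sensing prolyl hydroxylase PHD2, ran from 16.21 to 19.04 FPKM in 5-HT treated and from 15.39 to 16.91 FPKM in untreated libraries (log2 0.17, edgeR adjusted p 0.353). Egln3, which encodes PHD3 and is itself a known HIF target, ran from 1.86 to 2.73 FPKM in 5-HT treated and from 2.08 to 3.66 FPKM in untreated libraries (log2 -0.33, edgeR adjusted p 0.51). All 3 overlapped between groups.

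Among the 6 hypoxia-induced genes outside glycolysis, 1 was higher and 0 lower, with a median log2 fold change of 0.20. P4ha1 (ENSMUSG00000019916; chr10:59323296-59373304, plus strand) encodes a catalytic subunit of the collagen prolyl 4-hydroxylase. It had 49.00, 39.67 and 42.92 FPKM in 5-HT treated libraries, against 22.44, 24.62 and 23.15 FPKM in untreated libraries. The groups were far apart (1.88-fold, log2 0.91 ± 0.10 SE, n = 3 each), with the smallest adjusted p of the 34 genes (edgeR, 0.00298), and the call held in all 16 alternative fits (adjusted p up to 0.0285). P4ha2, the second catalytic subunit, ran from 3.00 to 5.45 FPKM in 5-HT treated and from 4.73 to 6.21 FPKM in untreated libraries (log2 -0.43, edgeR adjusted p 0.311). Its groups overlapped. Stellate cells and fibroblasts are known for collagen synthesis. Their markers summed to 91.15 to 171.3 FPKM in 5-HT treated and 163.8 to 235.5 FPKM in untreated libraries. The part of these cells in the levels of P4ha1 and P4ha2 was not tested.

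The other 4 hypoxia-induced genes overlapped between groups. Ndrg1, a stress-response gene, had 73.23, 64.57 and 85.07 FPKM in 5-HT treated libraries, against 64.89, 52.81 and 63.70 FPKM in untreated libraries (log2 0.30, edgeR adjusted p 0.256). Bnip3, a receptor for the removal of mitochondria, had 36.82, 33.91 and 34.17 FPKM in 5-HT treated libraries, against 41.32, 29.22 and 44.82 FPKM in untreated libraries (log2 -0.13, edgeR adjusted p 0.678). The spread among untreated libraries of Bnip3 exceeded the distance between the group means. Adm, the vasodilator peptide adrenomedullin, ran from 12.99 to 21.32 FPKM in 5-HT treated and from 13.62 to 17.38 FPKM in untreated libraries (log2 0.10, edgeR adjusted p 0.816). Ankrd37, an ankyrin repeat gene, ran from 1.10 to 1.52 FPKM in 5-HT treated and from 0.61 to 1.25 FPKM in untreated libraries (log2 0.33, edgeR adjusted p 0.622).

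**Figure D4:**
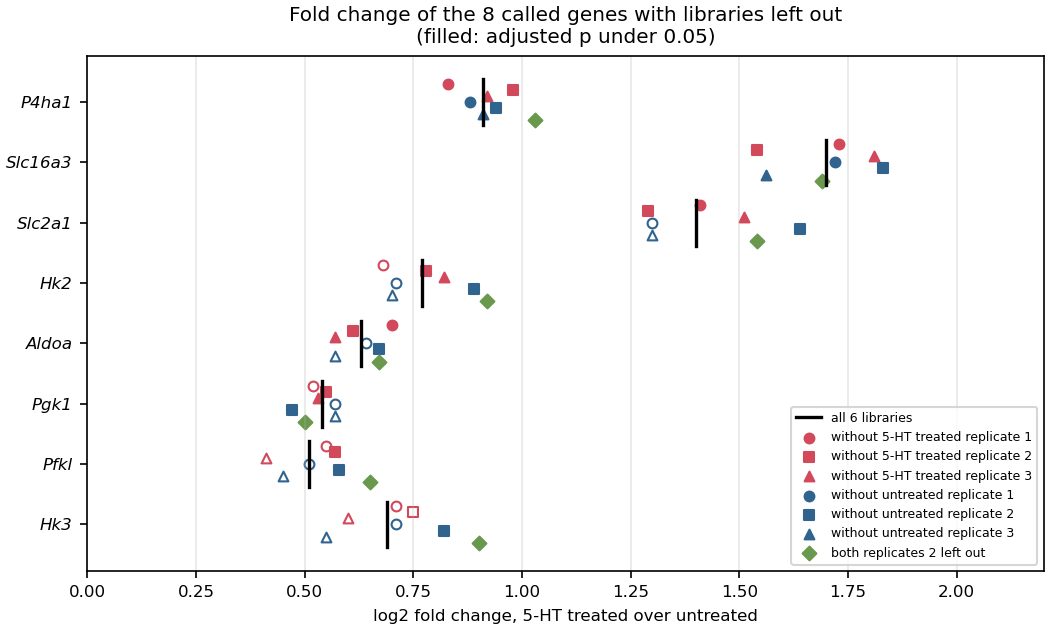
log2 fold change of the 8 genes called higher with each library left out in turn and with replicate 2 of both groups left out; black lines mark the value with all 6 libraries, and filled symbols an adjusted p under 0.05. P4ha1 and Slc16a3 are filled throughout, while open symbols are most frequent for Hk3 and Pfkl; every fold change stays above 0.

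The makeup of each enzyme family was followed library by library, as the share of the family's summed FPKM held by each gene. These shares depend on the exonic lengths, as the shares of raw counts below show. Over 13 families, 24 shares of the genes described were tested with an exact permutation test over the 6 libraries (two-sided). For 15 shares the groups did not overlap, which gives p = 0.1, the smallest exact p that 3 against 3 libraries allow, and the smallest Benjamini-Hochberg adjusted p was 0.16, so no share could pass the threshold. The values are given as a description.

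In glucose and lactate transport the shares of the called genes were higher after 5-HT. Slc16a3 held 48.0% ± 5.93 of the monocarboxylate transporter FPKM in 5-HT treated and 23.9% ± 4.87 in untreated libraries (SD, n = 3 each), while Slc16a1 held 42.4% ± 5.74 in 5-HT treated and 59.4% ± 7.57 in untreated libraries. Slc16a3 held more than Slc16a1 in 5-HT treated replicates 1 (46.3%) and 3 (54.6%), and less in the other 4 libraries. Slc2a1 held 57.9% ± 7.62 of the class I glucose transporter FPKM in 5-HT treated and 38.4% ± 3.56 in untreated libraries, a difference of 19.4 percentage points that was 9.7 between Slc2a1 and Slc2a3 alone.

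Among hexokinases, Hk1 and Hk3 had the highest FPKM in 5-HT treated libraries. Hk2 held 19.5% ± 2.49 in 5-HT treated and 13.5% ± 1.70 in untreated libraries, and Hk3 held 37.2% ± 2.53 in 5-HT treated and 27.2% ± 4.64 in untreated libraries (SD, n = 3 each). Among Hk1, Hk2 and Hk3 alone the share of Hk3 was higher by 6.10 percentage points in 5-HT treated libraries, in place of 10.1. Pfkl held 56.5% ± 2.74 of phosphofructokinase FPKM in 5-HT treated and 44.4% ± 0.97 in untreated libraries, Pfkm 14.3% ± 2.28 in 5-HT treated and 25.9% ± 3.14 in untreated libraries, and Pfkp 29.2% ± 4.90 in 5-HT treated and 29.7% ± 3.47 in untreated libraries. Pfkl had the highest FPKM of the 3 in all 6 libraries. That order rests on the exonic lengths, 6675 bases for Pfkl and 13401 bases for Pfkp. In raw counts Pfkl ran from 984 to 1562 and Pfkp from 1238 to 1766 over the libraries, so that order did not hold in every library.

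Ldha held 81.3% ± 1.12 of lactate dehydrogenase FPKM in 5-HT treated and 75.3% ± 0.719 in untreated libraries, and Eno1 90.7% ± 1.05 of enolase FPKM in 5-HT treated and 88.2% ± 0.856 in untreated libraries (SD, n = 3 each). Neither pair overlapped. Hif1a held 22.3% ± 4.59 of the HIF alpha FPKM in 5-HT treated and 12.8% ± 0.739 in untreated libraries, and Epas1 77.6% ± 4.63 in 5-HT treated and 87.0% ± 0.741 in untreated libraries. Epas1 therefore remained the more abundant alpha subunit in all 6 libraries. P4ha1 held 91.4% ± 2.36 of collagen prolyl hydroxylase FPKM in 5-HT treated and 80.5% ± 2.29 in untreated libraries, and P4ha2 8.38% ± 2.5 in 5-HT treated and 18.8% ± 2.87 in untreated libraries. Egln1 held 51.3% ± 0.668 of the HIF prolyl hydroxylase FPKM in 5-HT treated and 46.6% ± 5.14 in untreated libraries, where untreated replicate 1, at 40.7%, lay below the 49.5% and 49.7% of the others; the difference of 4.73 percentage points was 1.76 without it. In shares of raw counts, which weight genes by length, some differences were smaller and others larger. Smaller were -5.21 in place of -11.5 percentage points for Pfkm, 8.37 in place of 12.1 for Pfkl and 6.13 in place of 10.1 for Hk3. So were 3.65 in place of 6.03 for Ldha and 1.18 in place of 2.47 for Eno1. Larger were 14.1 in place of 10.9 for P4ha1, -13.8 in place of -10.4 for P4ha2 and -4.88 in place of -2.82 for Hk1.

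**Figure D5:**
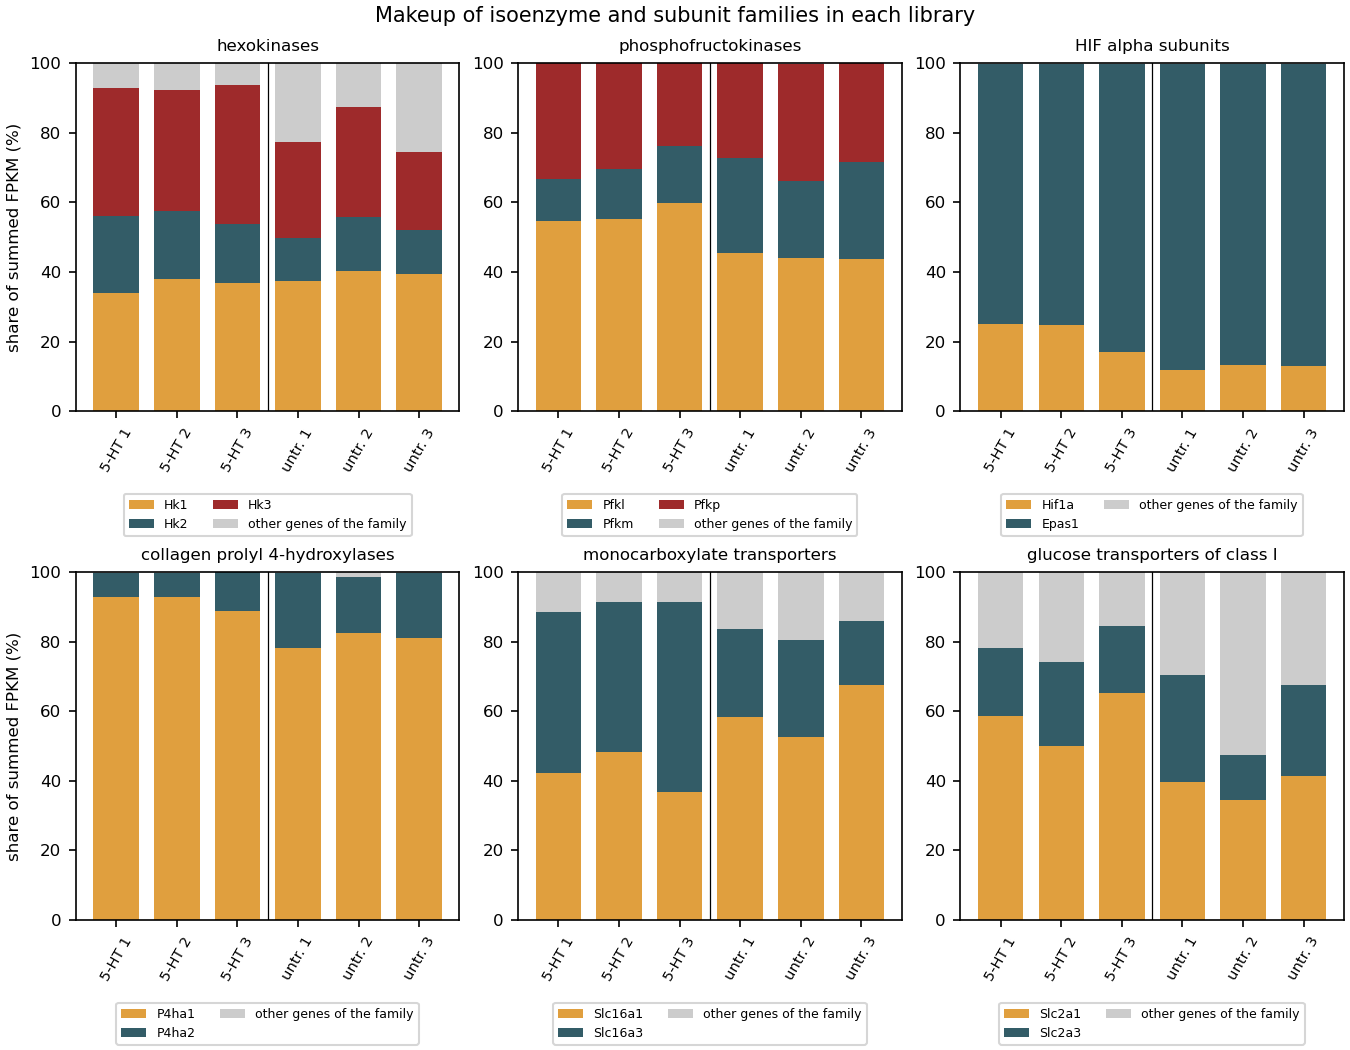
Share of the summed FPKM of 6 families held by each gene in each library (percent), with the 3 5-HT treated libraries left of the line and the 3 untreated libraries right of it. Pfkl lies between 54.6% and 59.7% in 5-HT treated libraries and between 43.6% and 45.5% in untreated libraries.

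Of 99 tested genes on 7 lists that border these pathways, 6 (6.06%) were higher and 4 (4.04%) lower, shares near the 4.55% and 3.19% of all genes tested. Of 7 pentose phosphate enzymes, which branch off after hexokinase and yield NADPH, 1 was higher and 0 lower, with a median log2 fold change of 0.20; at an unadjusted p under 0.05, 3 were higher and 0 lower, and DESeq2 called 1 higher and 0 lower. Pgd, the second NADPH-making enzyme, had 18.44, 19.21 and 16.64 FPKM in 5-HT treated libraries, against 13.37, 13.82 and 11.59 FPKM in untreated libraries, and rose 1.41-fold (log2 0.49, edgeR adjusted p 0.0247). The call of Pgd was lost without 5-HT treated replicate 1 (adjusted p 0.0819) or 2 (0.0527) or untreated replicate 1 (0.104) or 3 (0.0962). G6pdx, Taldo1 and Pgls had log2 fold changes of 0.36, 0.20 and -0.33 and were not called (edgeR adjusted p 0.117, 0.202 and 0.346).

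Of 17 other glycolysis isoenzymes and regulators, 1 was higher and 0 lower, with a median of -0.10. At an unadjusted p under 0.05, 1 was higher and 4 lower, and DESeq2 called 1 higher and 3 lower. The gene called higher by edgeR was Slc2a6, a glucose transporter known from activated macrophages, with 5.24, 4.86 and 4.34 FPKM in 5-HT treated libraries, against 1.85, 2.32 and 1.62 FPKM in untreated libraries (2.51-fold, log2 1.32 ± 0.17 SE, n = 3 each, edgeR adjusted p 0.00604). The groups were far apart, and the call held in all 15 alternative fits that gave it a value. The urate and sugar transporter Slc2a9 was not called (log2 -0.76, edgeR adjusted p 0.069). None of the 6 gluconeogenesis genes tested (of 7) was called by edgeR at the adjusted threshold, and the median was -0.66: Pck1, Fbp1, Pcx and G6pc3 had log2 fold changes of -1.40, -0.92, -0.94 and -0.40 (edgeR adjusted p 0.0682 to 0.148). At an unadjusted p under 0.05, 4 of the 6 were lower and 0 higher, a count with no background over all genes. DESeq2 called 3 lower and 0 higher, where it called 1018 lower and 1241 higher among all genes. Fbp1 and Pcx overlapped between groups. Untreated replicate 2, at 33.44 FPKM for Fbp1 and 4.91 FPKM for Pcx, lay within the range of the treated libraries. Pck1, the rate-limiting enzyme of gluconeogenesis in liver, had 96.22, 68.57 and 77.25 FPKM in 5-HT treated libraries, against 275.17, 95.87 and 265.68 FPKM in untreated libraries. Untreated replicate 2 lay near the treated libraries for Pck1, and the hepatocyte list summed to 1841, 1515 and 693.6 FPKM in 5-HT treated libraries, against 1318, 806.8 and 1366 FPKM in untreated libraries. Its 2 leading genes differed in direction, Alb with a log2 fold change of 0.69 and Tat with -1.45 (edgeR adjusted p 0.349 and 0.0548). Alb had 1239.54, 1079.85 and 368.93 FPKM in 5-HT treated libraries, against 577.79, 435.12 and 648.68 FPKM in untreated libraries. Tat had 100.4, 64.57 and 66.24 FPKM in 5-HT treated libraries, against 264.44, 105.27 and 259.61 FPKM in untreated libraries. The part of hepatocytes in the level of Pck1 was not tested.

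Of 12 genes for pyruvate entry into mitochondria, 0 were higher and 2 lower, with a median of -0.07. Pdk2, a pyruvate dehydrogenase kinase, had 4.79, 5.57 and 4.99 FPKM in 5-HT treated libraries, against 8.92, 7.39 and 8.0 FPKM in untreated libraries (log2 -0.66, edgeR adjusted p 0.0238), and Pdhb, a subunit of pyruvate dehydrogenase, had 18.41, 16.88 and 18.02 FPKM in 5-HT treated libraries, against 23.53, 21.63 and 23.38 FPKM in untreated libraries (log2 -0.36, edgeR adjusted p just under the threshold). Neither gene's groups overlapped. Pdk2 lost its call with the replicate block (adjusted p 0.0686) and without 5-HT treated replicate 1 (0.0833) or 3 (0.0553) or untreated replicate 1 (0.111) or 3 (0.0946), while Pdhb lost it in 9 of 16 alternatives, which include leaving out any single library except untreated replicate 2 (0.0772 to 0.185). Pdk3 (log2 0.51, edgeR adjusted p 0.0517) and the phosphatase Pdp1 (0.73, 0.0654) were not called, although both had an unadjusted p under 0.05 and DESeq2 called 2 genes of the list higher.

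Of 12 glycogen genes, 1 was higher and 1 lower, with a median of -0.23. At an unadjusted p under 0.05 the counts were 1 higher and 4 lower, and DESeq2 called 1 higher and 3 lower. Pgm2, a phosphoglucomutase, had 50.85, 44.18 and 50.66 FPKM in 5-HT treated libraries, against 32.25, 32.92 and 32.25 FPKM in untreated libraries (log2 0.59, edgeR adjusted p 0.0103), and Ppp1r3c, which targets a phosphatase to glycogen, had 0.39, 0.83 and 0.56 FPKM in 5-HT treated libraries, against 4.40, 1.87 and 5.26 FPKM in untreated libraries (log2 -2.69, edgeR adjusted p 0.0157). Neither overlapped between groups. Both lost the call without untreated replicate 1 (adjusted p 0.0635 for Pgm2 and 0.0693 for Ppp1r3c) or 3 (0.057 and 0.0718), and Ppp1r3c also without 5-HT treated replicate 1 (0.0646). The phosphorylase Pygm (log2 -0.84, edgeR adjusted p 0.0538) and the phosphoglucomutase Pgm1 (-0.45, 0.152) were not called.

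Of 11 other oxygen-sensing genes tested (of 12), 0 were called by edgeR in either direction at the adjusted threshold, with a median of 0.02; those of smallest p were Hif3a, Elob, Hif1an and Crebbp, with log2 fold changes of -1.46, -0.33, 0.21 and -0.28 (edgeR adjusted p 0.0569 to 0.177). At an unadjusted p under 0.05, 1 was higher and 3 lower, and DESeq2 called 1 lower. Of 34 other hypoxia-induced genes tested (of 35), 3 were higher and 1 lower, with a median of -0.07; at an unadjusted p under 0.05, 6 were higher and 3 lower, and DESeq2 called 3 higher and 2 lower. Ero1a, an oxidase of the endoplasmic reticulum, had 23.18, 19.95 and 21.24 FPKM in 5-HT treated libraries, against 10.30, 10.89 and 11.23 FPKM in untreated libraries (1.99-fold, log2 1.00 ± 0.09 SE, n = 3 each, edgeR adjusted p 0.00169). Its groups were far apart, and the call held in all 16 alternative fits. Nos2, the inducible nitric oxide synthase, and Hmox1, the haem oxygenase, were the other genes called higher (log2 7.07 and 0.76, edgeR adjusted p 0.00107 and 0.0118), and Hmox1 lost its call without untreated replicate 3 (adjusted p 0.0687). Nos2 had 30.9, 11.67 and 23.1 FPKM in 5-HT treated libraries, against 0.12, 0.23 and 0.13 FPKM in untreated libraries. The size of its fold change therefore rests on untreated values near the floor. Ddit4, an inhibitor of mTORC1 that is induced by hypoxia and by glucocorticoids, fell to 15.05, 24.03 and 16.07 FPKM in 5-HT treated libraries, against 84.96, 77.96 and 71.22 FPKM in untreated libraries (log2 -2.08, edgeR adjusted p 0.00165). Vegfa, the angiogenic factor and a classical HIF target, overlapped between groups, at 9.88 to 12.19 FPKM in 5-HT treated and 10.96 to 18.94 FPKM in untreated libraries (log2 -0.29, edgeR adjusted p 0.443); it was named after its values were seen.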

How the data were processed

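Kupffer cell mRNA was sequenced in 6 libraries. The authors deposited a raw read count and an FPKM per gene and library; the submitters' processing notes name mm10, featureCounts 2.0.1 and HISAT2 2.2.1. Recomputing FPKM from count, exonic length and column total matched 100% of deposited values of at least 1 (within 0.5% or rounding). The sources used here do not say if counting was stranded, so overlapping and antisense genes may share reads. Positions are those of GENCODE M21 (GRCm38), by gene identifier for 34 of 34 genes, since the table's own did not match that build; promoters are from RefSeq (GRCm38.p6).

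Counts of 5-HT treated against untreated libraries were tested in R 4.3.3 by the two-sided quasi-likelihood test of edgeR 4.0.16, after filterByExpr and TMM scaling; p-values were adjusted by Benjamini-Hochberg over 16641 genes at a threshold of 0.05. Each SE is the absolute log2 fold change over the square root of its F statistic. Group means and SDs were taken on FPKM. Shares were tested exactly with scipy 1.17.1. Scripts were tested on simulated data. Alternatives were other scalings and filters, DESeq2 1.42.0, limma 3.58.1 on log2(FPKM + 0.1, 1 or 5), a replicate block and each library left out; leaving out replicate 2 of both groups was chosen after seeing the data.

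Genes and lists were chosen with earlier results of these data known. The text names each of the 34 genes, with every library's value if called, at a mean of at least 20 FPKM or first in its role group; 4 genes of smallest p per pathway list; and the 2 most abundant genes per marker list. Results of 2 genes that this rule names, and a share that rests on 1 of them, are not reported here, although counts include them. Other genes were named after their values were seen. Total counts of 15390956 to 19050039 limit precision most for genes of low FPKM.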

Additional observations from a re-analysis of the deposited data

How the results depend on the processing

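Over 535 values of single genes in 16 alternative fits, 488 kept their direction and side of the threshold, 27 lost and 13 gained a call, and 7 changed sign, none of them called. DESeq2 called 1241 genes higher and 1018 lower, against 757 and 531 with edgeR, and 2 of the 34 genes lower. With replicate 2 of both groups left out, 1014 were higher and 1038 lower. With no filter on low counts, or on genes of at least 5 FPKM, 1 of the 34 was called lower (Epas1). With 1 library left out, 218 to 672 genes were higher and 111 to 675 lower, 2 to 8 of the 34 higher and 0 to 2 lower, and the median log2 fold change of the 34 ran from 0.19 to 0.26. With limma the median was 0.17 at a pseudocount of 1 and 0.13 at a pseudocount of 5, which shrinks low genes by construction. The log2 fold change of Slc16a1 was -0.16 with replicate 2 of both groups left out and ran from -0.10 to 0.53 with 1 library left out; likewise that of Aldoc ran from -0.13 to 0.53, of Bnip3 from -0.31 to 0.00 and of Adm from -0.15 to 0.24. Where not stated, the cause was not tested. Scaling moved the median of all genes by at most 0.004. Of 188 alternative shares, 172 moved by less than 1 SD and 16 by more; 6, for the small differences of Pfkp, Aldoc and Slc2a3, changed sign. The replicate block gave 542 genes higher and 354 lower, and 6 of the 34 higher and 0 lower (Pfkl and Hk3 lost the call). In deviations from the group means, same-numbered libraries correlated at 0.075, 0.073 and -0.011, and unlike-numbered ones at -0.14 to 0.092. The labels do not say if the same number marks a shared animal or day, and these correlations cannot exclude it.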
